A study of Homo sapiens with 8 samples.

Results

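The 42 genes described here encode proteins of the mitotic apparatus other than cyclins and kinases, such as spindle motors, kinetochore subunits, condensins and cytokinesis factors. They were chosen by symbol from a fixed list, drawn up with earlier results of these data known, as were the other gene lists used below. All 42 were found among the 23734 gene symbols of the deposited tables. Where a symbol had several transcripts, that of highest mean count stood for it, and all 42 passed the low-count filter that left 15654 genes for testing. RNA came from HCT-116, a line of human colorectal carcinoma cells, in 8 rRNA-depleted single-end libraries. Cells were exposed to 40 µM 5-fluorouracil (5-FU) or its vehicle DMSO for 12 h, washed, and then exposed to 2.5 µM 3-MB-PP1 or DMSO for 4 h. The 4 groups of 2 libraries were 5-FU then 3-MB-PP1 (the both-drug group), 5-FU then DMSO (the 5-FU group), DMSO then 3-MB-PP1 (the 3-MB-PP1 group) and DMSO then DMSO (the vehicle group). 5-FU is an antimetabolite that inhibits thymidylate synthase and disturbs RNA and DNA metabolism. 3-MB-PP1 resembles ATP but is too bulky for most kinases, and inhibits those with an enlarged ATP pocket; the series' design text speaks of CDK7 and p53 inhibitors. The labels state neither which kinase allele these cells carried, nor whether they were 1 clone, nor whether libraries of a group came from separate cultures, so p-values measure the spread between these libraries.

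Mitosis depends on a wave of proteins made late in the cell cycle: motors and microtubule-binding proteins build the spindle, kinetochores tie chromosomes to it, condensins compact the chromosomes, and the anaphase-promoting complex and cytokinesis factors then separate them and the cells. Many of these genes share promoter elements, the cell cycle genes homology region (CHR) and the CCAAT box, which are known to be bound by MuvB complexes and by the factor NF-Y. In cells with active p53, the inhibitor p21 is known to favour the repressive form of the MuvB complex, called DREAM, at such promoters.

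All 42 genes fell with 5-FU alone. With 3-MB-PP1 the median change was smaller, 18 of the 42 falling with it alone and 26 rising with it after 5-FU. Changes are log2 fold changes from edgeR's quasi-likelihood test with Benjamini-Hochberg adjustment over all genes tested, and a gene was said to rise or fall at an adjusted p under 0.05. With 5-FU alone, 42 of 42 fell, where 22.7% of all genes tested were lower and 21.4% higher. The median change was -1.46, against 0.0033 for all genes, and 36 of the 42 were more than 2-fold lower. With both drugs against vehicle, again 42 of 42 fell, with a median change of -1.22, where 26.3% of all genes were lower and 24.1% higher. With 5-FU before 3-MB-PP1, compared with 3-MB-PP1 alone, 42 fell, with a median change of -1.11, where 19.8% of all genes were lower and 19.7% higher. Most of these calls depended on the scaling. With factors from the ERCC spike-ins, added RNAs of known amount, all 42 estimates stayed below 0 in the 3 comparisons. Under that scaling edgeR passed 3 members for 5-FU alone, 4 for both drugs and 0 for 5-FU before 3-MB-PP1. At an unadjusted p under 0.05 it passed 35, 31 and 35. Calls over all genes also dropped from the usual TMM scaling, from 6904 to 244, from 7883 to 425 and from 6196 to 140. The members' medians under spike-in scaling were -1.34, -1.215 and -1.32. With 3-MB-PP1 alone, 18 fell, 0 rose and 24 did not pass, where 16.9% of all genes were lower and 11.5% higher. The median of -0.13 for 3-MB-PP1 alone became 0.07 under scaling to the ERCC spike-ins, which moved the median of all genes to 0.19. The spike-ins' share of library totals differed within groups (3.84% and 2.18% with 3-MB-PP1, 4.16% and 2.52% in vehicle). At an unadjusted p under 0.05, edgeR placed 22 members lower and 0 higher with 3-MB-PP1 alone, and DESeq2 with adjustment placed 16 lower and 0 higher.

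With 3-MB-PP1 after 5-FU, compared with 5-FU alone, 26 of the 42 rose, 2 fell and 14 did not pass, where 15.6% of all genes were higher and 17.3% lower. The median change was 0.27. Under spike-in scaling the median was 0.16, and 8 of the 42 estimates had the other sign. There edgeR passed 0 members, at an adjusted or an unadjusted p under 0.05, and 52 of all genes (5158 under TMM). The interaction, which tests whether the change with 3-MB-PP1 differed between cells with and without 5-FU, was higher for 29 members and not passed for 13, where 2.11% of all genes were higher and 2.06% lower. All 42 interaction estimates were above 0 under the usual TMM scaling, with a median of 0.38. Under spike-in scaling 14 of them were below 0, and the median of all genes was -0.31. That scaling passed 0 members for the interaction and 0 of all genes (652 under TMM). The interaction count was lower when some single libraries were left out, such as replicate 2 of the both-drug group. The count over all genes was lower there too. With each library left out in turn, the members' median interaction ran from 0.33 to 0.39. The call was held in all 8 fits that each left out a library for 10 members: ASPM, BIRC5, DLGAP5, HMMR, KIF11, MKI67, NCAPG, NCAPH, SMC4 and TOP2A. The 5 comparisons between groups share libraries, so they are not separate evidence.

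**Figure D1:**
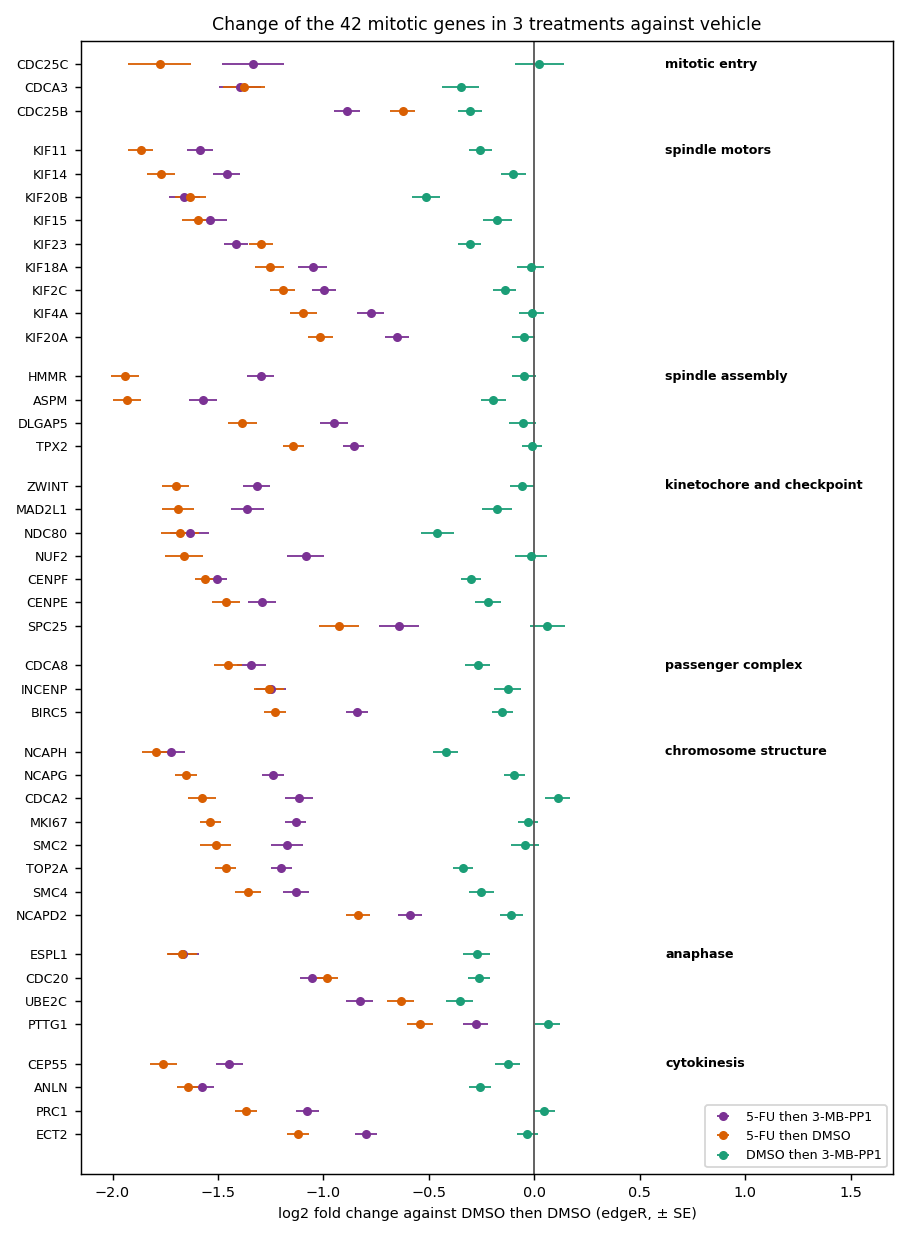
Log2 fold change against the vehicle group (horizontal axis, edgeR, bars ± SE) of the 42 genes by role, for 5-FU then 3-MB-PP1 (purple), 5-FU then DMSO (orange) and DMSO then 3-MB-PP1 (green). Both groups with 5-FU lie below 0 for all 42 genes, with medians of -1.22 and -1.46, while the 3-MB-PP1 group lies near 0 (median -0.13 under TMM scaling, 0.07 under spike-in scaling).

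The members' promoters were searched for 3 kinds of word on both strands. RefSeq promoter windows of 300 bases (250 before and 50 after the annotated start, GRCh38.p14) were given for 38 of the 42 members, and BIRC5, UBE2C, CDCA2 and TPX2 were not among them. The CHR words TTTGAA and TTCGAA were in a window of 33 of these 38 genes (86.8%), against 19.5% of all 27305 genes in the table. The word CCAAT was in a window of 29 members (76.3%), against 39.7% of all genes, and at least 2 CCAAT words stood in 17 members (44.7%), against 12.9%. The E2F words TTTCCCGC, TTTGGCGC and TTTCGCGC were in 1 member, the spindle kinesin gene KIF15 (2.63%), against 3.30% of all genes. Of 49 CHR words in all windows of members, 25 began within the 60 bases before the start. These are matches of letters in the windows, and binding was not measured. Many mitotic genes are known to share CHR and CCAAT elements. High shares thus come with the choice of members and do not bear on the drugs. The 27305 genes were not limited to those tested here.

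The stretches listed here are the 150 bases before the start of 8 members, 5′ to 3′ on the gene's strand in GRCh38.p14, with CHR and CCAAT words of either strand in capitals. They show the members with the largest and among the smallest falls with 5-FU, members with both kinds of word, and 3 of the 5 members without a CHR word.
HMMR (chr5:163460482-163460631, plus strand): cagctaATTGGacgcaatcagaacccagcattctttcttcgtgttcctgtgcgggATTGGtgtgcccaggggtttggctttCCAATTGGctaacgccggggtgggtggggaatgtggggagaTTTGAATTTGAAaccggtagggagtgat
KIF11 (chr10:92592980-92593129, plus strand): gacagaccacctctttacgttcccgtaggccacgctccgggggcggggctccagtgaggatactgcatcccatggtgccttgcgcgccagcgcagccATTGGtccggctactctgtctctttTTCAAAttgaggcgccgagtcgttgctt
MKI67 (chr10:128126424-128126573, minus strand): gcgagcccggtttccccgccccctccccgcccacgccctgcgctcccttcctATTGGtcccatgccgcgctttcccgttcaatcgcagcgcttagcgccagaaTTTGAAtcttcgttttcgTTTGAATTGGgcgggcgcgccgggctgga
CDCA8 (chr1:37692366-37692515, plus strand): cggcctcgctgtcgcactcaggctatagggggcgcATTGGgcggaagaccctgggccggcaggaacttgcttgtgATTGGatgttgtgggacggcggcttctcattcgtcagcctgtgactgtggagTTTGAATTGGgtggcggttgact
ESPL1 (chr12:53268149-53268298, plus strand): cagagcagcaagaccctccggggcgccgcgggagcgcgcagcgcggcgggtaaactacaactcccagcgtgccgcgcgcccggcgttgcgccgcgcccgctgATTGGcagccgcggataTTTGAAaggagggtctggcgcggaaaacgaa
NCAPH (chr2:96335616-96335765, plus strand): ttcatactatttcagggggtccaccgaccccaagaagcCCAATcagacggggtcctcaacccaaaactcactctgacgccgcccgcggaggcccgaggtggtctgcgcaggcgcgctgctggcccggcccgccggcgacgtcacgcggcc
KIF20A (chr5:138178962-138179111, plus strand): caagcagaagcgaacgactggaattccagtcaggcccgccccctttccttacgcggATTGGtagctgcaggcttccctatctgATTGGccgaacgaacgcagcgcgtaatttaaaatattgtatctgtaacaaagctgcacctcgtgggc
PTTG1 (chr5:160421705-160421854, plus strand): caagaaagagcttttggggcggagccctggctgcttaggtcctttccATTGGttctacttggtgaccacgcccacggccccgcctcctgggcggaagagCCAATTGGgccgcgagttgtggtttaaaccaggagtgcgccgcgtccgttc
In HMMR the 2 CHR words adjoin each other, and in MKI67 and CDCA8 a CHR word shares a base with the CCAAT word that follows it. CCAAT words facing each other also share bases, as in HMMR and PTTG1. NCAPH, KIF20A and PTTG1 had CCAAT words but no CHR word in these windows, and KIF2C and CENPE had neither.

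**Figure D2:**
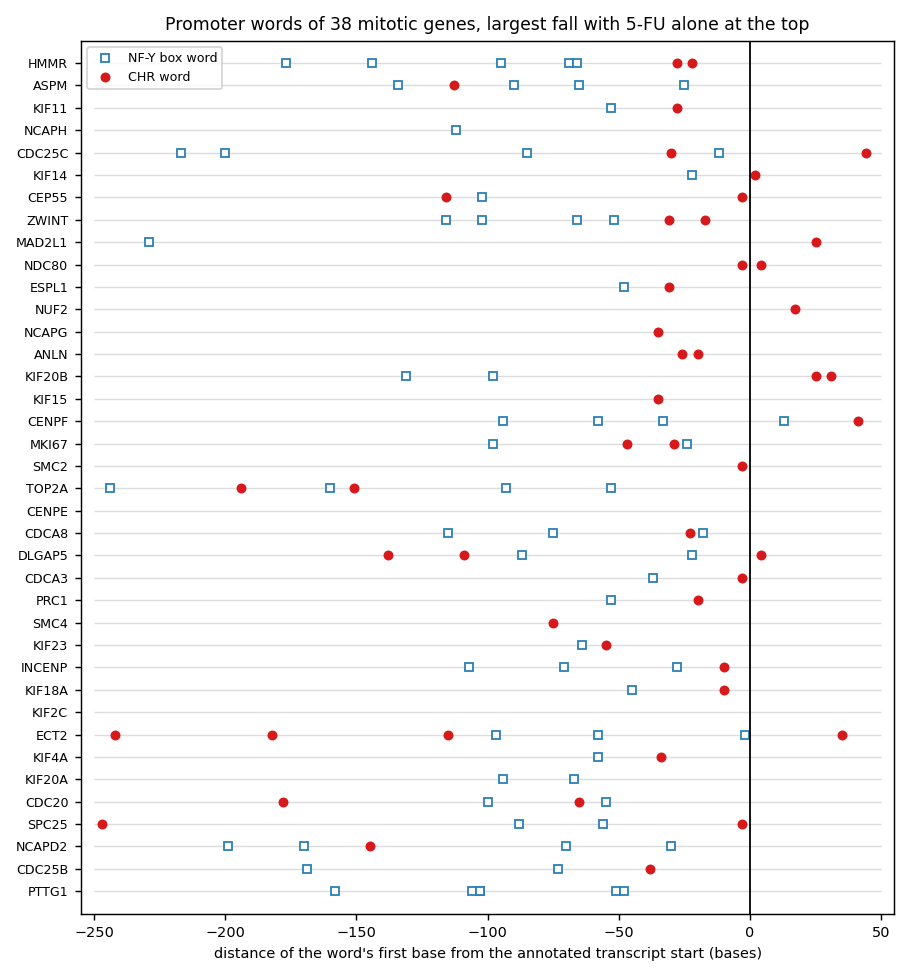
Distance of each word's first base from the annotated transcript start (horizontal axis, bases) for 38 genes, ordered by their change with 5-FU alone with the largest fall at the top, with CHR words as red dots and CCAAT words (the NF-Y box) as blue squares. A gene with several annotated starts has the words of all its windows in its row, and 25 of the 49 CHR words begin within 60 bases before the start.

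The median change with 5-FU alone was -1.54 over the 33 members with a CHR word and -1.19 over the 5 without. The ranges overlapped, from -1.94 to -0.62 with the word and from -1.79 to -0.54 without it, and NCAPH, without one, fell (-1.79) by more than the median of those that had one. With and without a CCAAT word the medians were -1.45 (29 genes) and -1.59 (9 genes). For the interaction the medians with and without a CHR word were 0.39 and 0.39.

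In the vehicle libraries the members' levels per length varied widely. In the deposited RPKM, CDC20 was the highest of the 42 at 216 ± 13.1 RPKM (SD, n = 2), followed by PTTG1 at 150.4 ± 6.07, MAD2L1 at 126 ± 4.96 and TPX2 at 125 ± 0.122. TPX2 and MAD2L1 did not differ beyond their spread. The lowest were ESPL1 at 13.8 ± 0.542, KIF15 at 12.1 ± 0.457 and CDC25C at 7.12 ± 0.215 RPKM. Together the 42 genes took 0.364% and 0.376% of gene counts in the both-drug libraries, 0.314% and 0.319% in the 5-FU libraries, 0.737% and 0.732% in the 3-MB-PP1 libraries, and 0.804% and 0.792% in the vehicle libraries. Their summed CPM (TMM-scaled counts relative to library size) was 45.5% of vehicle in the both-drug group, 39.1% in the 5-FU group and 89.7% in the 3-MB-PP1 group. In bulk RNA, fewer cells in G2 or mitosis and less of these RNAs per cell cannot be told apart.

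Across single genes the order of the group means was the same for 31 of the 42: highest in vehicle, then 3-MB-PP1, then both drugs, and lowest with 5-FU. In 6 members (CDC20, CDC25B, CDCA3, KIF20B, KIF23 and UBE2C) the both-drug group was the lowest, and in 5 (CDC25C, CDCA2, PRC1, PTTG1 and SPC25) the 3-MB-PP1 group was the highest. Both 5-FU libraries lay below both vehicle libraries for all 42 genes, as did both both-drug libraries. Both-drug libraries lay above both 5-FU libraries for 32 members, below them for 4 (CDC25B, UBE2C, KIF23 and CDC20), and overlapped them for 6. The 3-MB-PP1 libraries lay below both vehicle libraries for 30, above them for 2 (CDCA2 and PTTG1), and overlapped them for 10. Not all of these small gaps passed the test. Such gaps were not counted over all genes, so no background share stands beside these counts. With only 2 libraries a group, libraries can also lie apart without a change.

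The 3 genes of mitotic entry fell with 5-FU alone with a median change of -1.38. CDC25B and CDC25C are phosphatases that activate CDK1, and CDCA3 is a ubiquitin ligase adaptor known to promote the loss of the CDK1 inhibitor WEE1. CDC25B had 69.5 and 67.1 CPM in the both-drug libraries, 84.5 and 79.5 in the 5-FU libraries, 102 and 102 in the 3-MB-PP1 libraries, and 126 and 127 in the vehicle libraries. The both-drug libraries were the lowest and none of the 4 groups overlapped. CDC25B changed by -0.62, SE 0.06, adjusted p = 2.9e-09 with 5-FU alone, by -0.31, SE 0.06, adjusted p = 0.000241 with 3-MB-PP1 alone and by -0.26, SE 0.06, adjusted p = 0.00222 with 3-MB-PP1 after 5-FU, falling in each. It was 1 of the 2 members that fell with 3-MB-PP1 after 5-FU, and its interaction estimate was the smallest of all (0.04, adjusted p = 0.849). CDC25C had 6.49 and 5.71 CPM in the both-drug libraries, 4.67 and 4.32 in the 5-FU libraries, 14.6 and 17.8 in the 3-MB-PP1 libraries, and 15.7 and 15.1 in the vehicle libraries. Both groups with 5-FU lay below both groups without it, and the 3-MB-PP1 and vehicle libraries overlapped. CDC25C fell (-1.78, SE 0.15) with 5-FU alone; its change of 0.44 with 3-MB-PP1 after 5-FU had an adjusted p of 0.0594. With counts as low as 71 in a library, its standard errors were the largest of the 42. CDCA3 fell (-1.38) with 5-FU alone and fell (-0.35) with 3-MB-PP1 alone. None of the 3 passed the interaction test in edgeR or in DESeq2, and CDCA3 alone had an unadjusted p under 0.05 in edgeR.

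The 9 spindle motors, kinesins that slide, depolymerise or carry cargo along microtubules, all fell with 5-FU alone, with a median change of -1.30. KIF11, the kinesin that pushes spindle poles apart, fell most. KIF11 had 56.5 and 58.3 CPM in the both-drug libraries, 46.2 and 48.3 in the 5-FU libraries, 145 and 143 in the 3-MB-PP1 libraries, and 173 and 172 in the vehicle libraries. The groups did not overlap, with both 5-FU libraries at the bottom. KIF11 changed by -1.87, SE 0.06, adjusted p = 1.43e-18 with 5-FU alone, fell (-0.26) with 3-MB-PP1 alone and rose (0.28) with 3-MB-PP1 after 5-FU. On hg19 it lies on chromosome 10 from 94352825 to 94415152. KIF20A, which carries the passenger complex to the central spindle, fell least. KIF20A had 102 and 107 CPM in the both-drug libraries, 81.5 and 80.4 in the 5-FU libraries, 161 and 154 in the 3-MB-PP1 libraries, and 161 and 166 in the vehicle libraries. The 3-MB-PP1 and vehicle libraries of KIF20A overlapped in their range, while the other groups lay apart. It fell (-1.01) with 5-FU alone and rose (0.36) with 3-MB-PP1 after 5-FU (adjusted p = 4.83e-05). CDC23 lies on the opposite strand and overlaps it, and whether counting used strand is not given in the sources read, so reads of both cannot be told apart.

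KIF20B and KIF23 act in cytokinesis, KIF23 as the motor of the centralspindlin complex. KIF20B had 56.7 and 67.3 CPM in the both-drug libraries, 58.4 and 68.0 in the 5-FU libraries, 138 and 136 in the 3-MB-PP1 libraries, and 199 and 193 in the vehicle libraries. The both-drug and 5-FU libraries overlapped and lay below the 3-MB-PP1 libraries, which in turn lay below vehicle. KIF20B had the largest fall of the 42 with 3-MB-PP1 alone (-0.51, SE 0.07, adjusted p = 2.29e-06) and a change of -0.03 after 5-FU that did not pass (adjusted p = 0.815). KIF23 had 89.2 and 88.6 CPM in the both-drug libraries, 94.3 and 98.6 in the 5-FU libraries, 193 and 189.9 in the 3-MB-PP1 libraries, and 230.3 and 244 in the vehicle libraries. Each group lay apart from the others, with both drugs lowest. KIF23 fell with 3-MB-PP1 alone (-0.31, SE 0.05, adjusted p = 8.74e-05), and after 5-FU its change of -0.12 did not pass. Of the 9 motors, 3 fell with 3-MB-PP1 alone (KIF11, KIF20B and KIF23) and 6 rose with it after 5-FU (KIF2C, KIF4A, KIF11, KIF14, KIF18A and KIF20A). The rise of KIF18A (edgeR adjusted p = 0.0352) was not called in DESeq2 or without the low-count filter. Calls of KIF18A and KIF2C were also lost in some fits that left out a library. The interaction passed for 6 of 9, and for 2 of 9 without replicate 2 of the both-drug group.

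**Figure D3:**
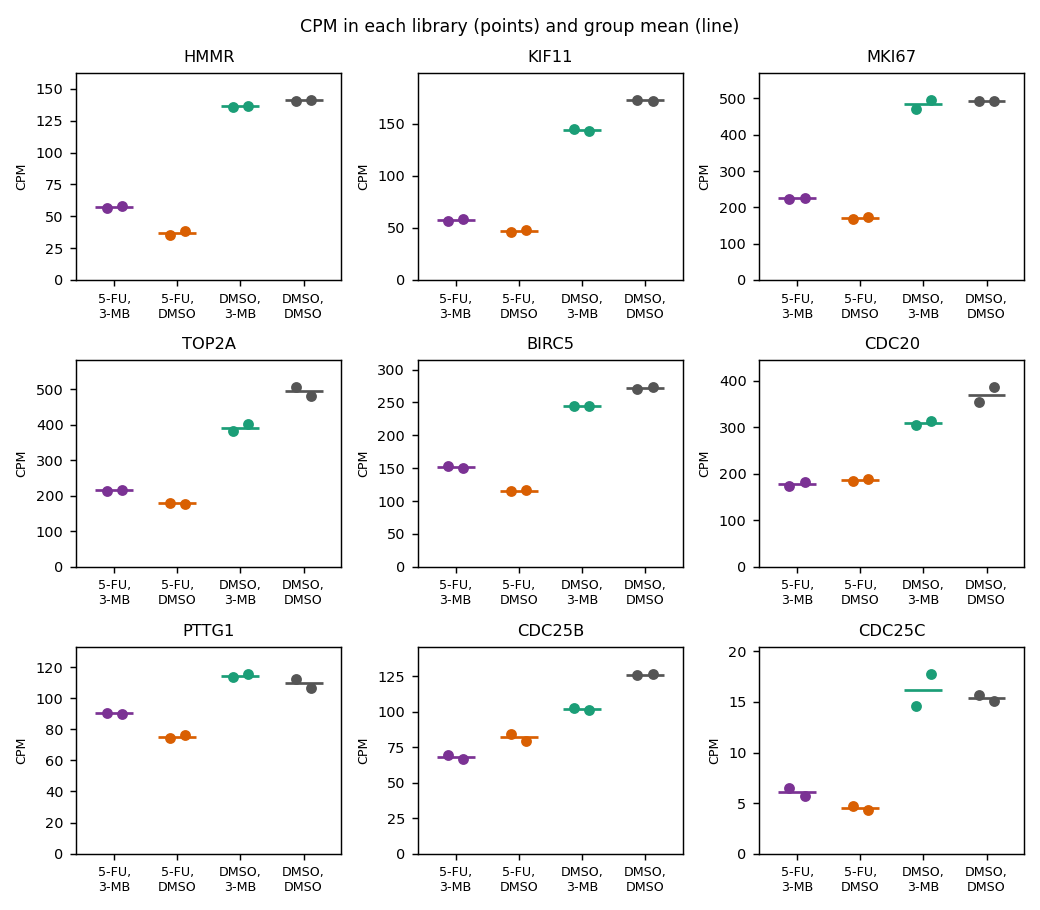
CPM (vertical axis, starting at 0) of 9 members in each of the 8 libraries (points) with the group means (lines), for 5-FU then 3-MB-PP1, 5-FU then DMSO, DMSO then 3-MB-PP1 and DMSO then DMSO from left to right. HMMR, KIF11, MKI67, TOP2A and BIRC5 are higher with both drugs than with 5-FU alone, and CDC25B is lower.

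All 4 spindle assembly genes fell with 5-FU alone, with a median change of -1.66. HMMR binds microtubules and hyaluronan, ASPM focuses spindle poles, DLGAP5 stabilises kinetochore fibres, and TPX2 activates Aurora A and promotes microtubule growth near chromosomes. HMMR had 56.6 and 58.1 CPM in the both-drug libraries, 35.03 and 38.3 in the 5-FU libraries, 136 and 136 in the 3-MB-PP1 libraries, and 141 and 141 in the vehicle libraries. The 5-FU libraries were the lowest, the both-drug libraries lay apart above them, and the 3-MB-PP1 and vehicle groups were close together. HMMR, on chromosome 5 from 162887517 to 162918953 (hg19), had the largest fall with 5-FU alone (-1.94, SE 0.07, adjusted p = 2.33e-18) and the largest rise with 3-MB-PP1 after 5-FU (0.64, SE 0.07, adjusted p = 1.43e-07) of the 42. With 3-MB-PP1 alone its change of -0.05 did not pass, and the interaction was 0.69 (adjusted p = 2.32e-05), also the largest. TPX2 had 256 and 262 CPM in the both-drug libraries, 212 and 213 in the 5-FU libraries, 481 and 447 in the 3-MB-PP1 libraries, and 468 and 469 in the vehicle libraries. The both-drug libraries lay above the 5-FU libraries, and the 3-MB-PP1 and vehicle libraries overlapped. TPX2 fell (-1.14) with 5-FU alone and rose (0.29) after 5-FU. ASPM fell (-1.93) with 5-FU alone and fell (-0.20) with 3-MB-PP1 alone, a call that was lost in 3 of 8 fits that each left out a library (3-MB-PP1 replicate 1, vehicle replicate 1 and vehicle replicate 2). All 4 genes rose with 3-MB-PP1 after 5-FU and all 4 passed the interaction.

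The 7 kinetochore and checkpoint genes fell with 5-FU alone with a median change of -1.66. NDC80, NUF2 and SPC25 are subunits of the complex that binds microtubule ends, CENPE is a kinetochore kinesin, CENPF a large kinetochore protein, ZWINT a linker of the outer kinetochore and MAD2L1 the checkpoint protein MAD2. NDC80 had 15.6 and 16.9 CPM in the both-drug libraries, 15.9 and 15.6 in the 5-FU libraries, 37.9 and 34.6 in the 3-MB-PP1 libraries, and 52.9 and 48.1 in the vehicle libraries. The both-drug and 5-FU libraries overlapped, and the 3-MB-PP1 libraries lay below vehicle. NUF2 had 24.2 and 26.9 CPM in the both-drug libraries, 15.3 and 18.8 in the 5-FU libraries, 54.1 and 52.8 in the 3-MB-PP1 libraries, and 55.2 and 53.2 in the vehicle libraries. Here the both-drug libraries lay above the 5-FU libraries, while the 3-MB-PP1 and vehicle libraries overlapped. SPC25 had 20.9 and 22.7 CPM in the both-drug libraries, 18.6 and 17.3 in the 5-FU libraries, 36.0 and 34.6 in the 3-MB-PP1 libraries, and 32.0 and 36.0 in the vehicle libraries. Again the both-drug libraries lay above the 5-FU libraries, and the groups without 5-FU overlapped.

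With 5-FU alone NDC80 fell (-1.68), NUF2 (-1.66) and SPC25 (-0.93), the smallest fall of the group. With 3-MB-PP1 after 5-FU, NUF2 rose (0.58, SE 0.10, adjusted p = 9.17e-05), SPC25 rose (0.28, adjusted p = 0.0319), and NDC80 changed by 0.04 and did not pass. The SPC25 call was lost without replicate 2 of the both-drug group or without either 5-FU library. With 3-MB-PP1 alone NDC80 fell (-0.46), and NUF2 and SPC25 changed by -0.01 and 0.06 and did not pass. ZWINT had 49.9 and 52.3 CPM in the both-drug libraries, 38.2 and 40.0 in the 5-FU libraries, 123 and 121 in the 3-MB-PP1 libraries, and 129 and 125 in the vehicle libraries. ZWINT fell most of the group with 5-FU alone (-1.70, SE 0.06, adjusted p = 2.44e-17), and its both-drug libraries lay above its 5-FU libraries. In all, 3 of the 7 fell with 3-MB-PP1 alone (CENPE, CENPF and NDC80) and 4 rose with it after 5-FU (NUF2, SPC25, MAD2L1 and ZWINT). The interaction passed for 6 of 7, and for 0 of 7 without replicate 2 of the both-drug group, and at an unadjusted p under 0.05 it was higher for 6 with all libraries.

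The chromosomal passenger complex corrects attachments of kinetochores and guides cytokinesis, and 3 of its subunits were members: BIRC5 (survivin), CDCA8 (borealin) and the scaffold INCENP. BIRC5 had 153 and 150.2 CPM in the both-drug libraries, 115 and 116 in the 5-FU libraries, 245 and 245 in the 3-MB-PP1 libraries, and 271 and 273 in the vehicle libraries. The 4 groups of BIRC5 did not overlap. It fell with 5-FU alone (-1.23, SE 0.05, adjusted p = 1.91e-16) and rose with 3-MB-PP1 after 5-FU (0.39, SE 0.05, adjusted p = 3.82e-06). Its fall with 3-MB-PP1 alone was small (-0.15, adjusted p = 0.0217), was lost in 6 of 8 fits that each left out a library (both drugs replicate 1, both drugs replicate 2, 3-MB-PP1 replicate 1, 3-MB-PP1 replicate 2, vehicle replicate 1 and vehicle replicate 2) and turned to 0.06 under spike-in scaling. CDCA8 had 40.1 and 37.9 CPM in the both-drug libraries, 36.7 and 35.5 in the 5-FU libraries, 80.5 and 84.1 in the 3-MB-PP1 libraries, and 98.5 and 99.1 in the vehicle libraries. The both-drug libraries lay just above the 5-FU libraries, and the 3-MB-PP1 libraries lay below vehicle. CDCA8 fell with 5-FU alone (-1.45) and also with 3-MB-PP1 alone (-0.27), and its change of 0.11 after 5-FU did not pass. INCENP fell with 5-FU alone (-1.26) and passed neither comparison with 3-MB-PP1 (-0.13 alone and 0.01 after 5-FU). BIRC5 and CDCA8 passed the interaction, CDCA8 not in DESeq2.

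The 8 genes of chromosome structure were NCAPG, NCAPH and NCAPD2 of condensin I, SMC2 and SMC4 of both condensins, topoisomerase IIα (TOP2A), the chromosome surface protein Ki-67 (MKI67) and CDCA2, which brings protein phosphatase 1 to chromatin. They fell with 5-FU alone with a median change of -1.52. TOP2A had 214 and 217 CPM in the both-drug libraries, 180.0 and 178 in the 5-FU libraries, 381 and 402 in the 3-MB-PP1 libraries, and 506 and 482 in the vehicle libraries. Each group lay apart, with vehicle highest and 5-FU lowest. TOP2A, on chromosome 17 from 38544773 to 38574202 (hg19), fell with 5-FU alone (-1.46, SE 0.05, adjusted p = 3.07e-18), fell with 3-MB-PP1 alone (-0.34, SE 0.05, adjusted p = 6.79e-06) and rose with 3-MB-PP1 after 5-FU (0.27, SE 0.05, adjusted p = 0.000262). Its interaction of 0.60 had the smallest adjusted p of the 42 (3.9e-06). MKI67 had 224 and 226 CPM in the both-drug libraries, 167 and 173 in the 5-FU libraries, 472 and 495 in the 3-MB-PP1 libraries, and 494 and 492 in the vehicle libraries. The both-drug libraries lay above the 5-FU libraries, and the groups without 5-FU overlapped. MKI67 fell (-1.54) with 5-FU alone, rose (0.40) after it, and changed by -0.03 with 3-MB-PP1 alone (not passed).

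The condensin subunits' changes with 5-FU alone ran from -1.79 in NCAPH to -0.84 in NCAPD2. NCAPH had 35.9 and 35.1 CPM in the both-drug libraries, 34.6 and 33.2 in the 5-FU libraries, 87.9 and 87.4 in the 3-MB-PP1 libraries, and 120.3 and 114 in the vehicle libraries. The 3-MB-PP1 libraries were below vehicle, and the both-drug libraries lay only just above the 5-FU libraries. NCAPG had 135 and 142 CPM in the both-drug libraries, 105 and 102 in the 5-FU libraries, 304 and 307 in the 3-MB-PP1 libraries, and 321 and 330.4 in the vehicle libraries. Here the both-drug and 5-FU libraries lay well apart, and the 3-MB-PP1 libraries lay just below vehicle. NCAPD2 had 141 and 149 CPM in the both-drug libraries, 128 and 117 in the 5-FU libraries, 199 and 205 in the 3-MB-PP1 libraries, and 223 and 213 in the vehicle libraries. None of its groups overlapped, and its levels with 5-FU were closest to vehicle. With 5-FU alone NCAPH fell most of the 8 (-1.79, SE 0.07, adjusted p = 1.37e-17), NCAPG fell (-1.65) and NCAPD2 fell least (-0.84, SE 0.06, adjusted p = 5e-12), with SMC2 at -1.51 and SMC4 at -1.36 between them. With 3-MB-PP1 alone NCAPH fell (-0.42) and SMC4 (-0.25), and NCAPG, NCAPD2 and SMC2 did not pass. After 5-FU, NCAPG (0.42), SMC2 (0.34), NCAPD2 (0.25) and SMC4 (0.23) rose, and NCAPH changed by 0.07 (not passed). LCORL overlaps NCAPG on the opposite strand, and the small RNA genes SCARNA10 (in NCAPD2) and MIR15B and MIR16-2 (in SMC4) lie on the same strand.

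CDCA2 had the largest positive change with 3-MB-PP1 alone of the 42. CDCA2 had 62.0 and 65.8 CPM in the both-drug libraries, 44.7 and 48.1 in the 5-FU libraries, 146 and 154 in the 3-MB-PP1 libraries, and 136 and 141 in the vehicle libraries. The 3-MB-PP1 libraries lay above vehicle and the both-drug libraries above the 5-FU libraries. The change with 3-MB-PP1 alone of 0.11 did not pass (adjusted p = 0.167), while the rise after 5-FU did (0.46, SE 0.07, adjusted p = 1.43e-05). Of the 8 genes, 7 rose with 3-MB-PP1 after 5-FU and all 8 passed the interaction, 7 in DESeq2 and 5 without replicate 2 of the both-drug group.

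The 4 anaphase genes had the smallest median change with 5-FU alone of the 8 groups of genes, -0.81; ESPL1, at -1.67, fell most. CDC20 activates the anaphase-promoting complex, UBE2C is its ubiquitin-conjugating enzyme, PTTG1 (securin) inhibits separase, and ESPL1 is separase, which cuts cohesin. CDC20 had 173 and 183 CPM in the both-drug libraries, 185 and 189 in the 5-FU libraries, 304 and 314 in the 3-MB-PP1 libraries, and 354 and 386 in the vehicle libraries. UBE2C had 80.4 and 86.5 CPM in the both-drug libraries, 99.3 and 91.8 in the 5-FU libraries, 121 and 109 in the 3-MB-PP1 libraries, and 148 and 149 in the vehicle libraries. Both genes had their both-drug libraries below their 5-FU libraries and their 3-MB-PP1 libraries below vehicle. CDC20 fell with 5-FU alone (-0.98, SE 0.05, adjusted p = 3.88e-14) and also with 3-MB-PP1 alone (-0.26), and its change of -0.07 after 5-FU did not pass. UBE2C fell with 5-FU alone (-0.63, SE 0.06, adjusted p = 7.48e-09), with 3-MB-PP1 alone (-0.35) and with 3-MB-PP1 after 5-FU (-0.19, adjusted p = 0.0273). The last call was lost in DESeq2, without replicate 1 of the both-drug group and without replicate 1 of the 5-FU group.

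PTTG1 had 90.5 and 90.04 CPM in the both-drug libraries, 74.3 and 76.1 in the 5-FU libraries, 113 and 116 in the 3-MB-PP1 libraries, and 113 and 106 in the vehicle libraries. ESPL1 had 28.3 and 30.7 CPM in the both-drug libraries, 29.9 and 28.8 in the 5-FU libraries, 75.8 and 79.5 in the 3-MB-PP1 libraries, and 96.1 and 90.9 in the vehicle libraries. PTTG1 was highest in the 3-MB-PP1 libraries, and its both-drug libraries lay above its 5-FU libraries; for ESPL1 the both-drug and 5-FU libraries overlapped. PTTG1, on chromosome 5 from 159848865 to 159855746 (hg19), had the smallest fall of the 42 with 5-FU alone (-0.54, SE 0.06, adjusted p = 4.33e-08), with 5-FU before 3-MB-PP1 (-0.34) and with both drugs (-0.28), and rose with 3-MB-PP1 after 5-FU (0.26). ESPL1, whose product securin restrains, fell (-1.67) with 5-FU alone and (-1.39) with 5-FU before 3-MB-PP1, the largest fall of the 42 there. For the interaction 0 of the 4 passed in edgeR and 0 in DESeq2, and 3 (CDC20, PTTG1 and ESPL1) were higher at an unadjusted p under 0.05. Their interaction estimates ran from 0.16 in UBE2C to 0.28 in ESPL1.

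The 4 cytokinesis genes fell with 5-FU alone with a median change of -1.505. PRC1 bundles the microtubules of the central spindle, ECT2 activates RhoA at the cell equator, ANLN (anillin) scaffolds the contractile ring and CEP55 brings the abscission machinery to the midbody. CEP55 had 62.8 and 60.2 CPM in the both-drug libraries, 47.0 and 51.8 in the 5-FU libraries, 149 and 159 in the 3-MB-PP1 libraries, and 166 and 169 in the vehicle libraries. ECT2 had 182 and 186 CPM in the both-drug libraries, 143 and 151 in the 5-FU libraries, 307 and 319.9 in the 3-MB-PP1 libraries, and 321 and 320.5 in the vehicle libraries. Both genes had their both-drug libraries above their 5-FU libraries, and their 3-MB-PP1 libraries close below vehicle. CEP55 fell most of the 4 with 5-FU alone (-1.76, SE 0.07, adjusted p = 1.35e-17) and ECT2 least (-1.12, SE 0.05, adjusted p = 1.26e-15). With 3-MB-PP1 after 5-FU, CEP55 (0.31), ECT2 (0.32) and PRC1 (0.29) rose, and ANLN changed by 0.07 (not passed). ANLN was the 1 gene of the 4 that fell with 3-MB-PP1 alone (-0.26). The interaction passed for 3 of 4, PRC1 missing at an adjusted p of 0.0591, and for 1 of 4 without replicate 2 of the both-drug group. PRC1-AS1 lies opposite PRC1 and KIAA0895 opposite ANLN.

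Taking 3-MB-PP1 alone and after 5-FU side by side, 5 members fell in the first and rose in the second: ASPM, BIRC5, KIF11, SMC4 and TOP2A. For ASPM and BIRC5 the fall was not called in DESeq2 or in several fits that left out a library, and under spike-in scaling their changes with 3-MB-PP1 alone were 0.019 and 0.063, neither passing. A further 17 members passed the interaction and rose after 5-FU with no call for 3-MB-PP1 alone, and 7 passed it and fell with 3-MB-PP1 alone with no call after 5-FU. CDC25B and UBE2C fell in both and did not pass the interaction. Under spike-in scaling 36 of the 42 lay above the shift of all genes for 3-MB-PP1 after 5-FU (median 0.16 against -0.12), and 31 lay below it for 3-MB-PP1 alone (0.07 against 0.19). All 42 lay above the shift for the interaction, with a median of 0.03 against -0.31, and all 42 below it for 5-FU alone (-1.34 against 0.13). Under that scaling edgeR passed 0 members for 3-MB-PP1 alone, for 3-MB-PP1 after 5-FU and for the interaction, at adjusted and at unadjusted p under 0.05. DESeq2 was not run with that scaling.

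**Figure D4:**
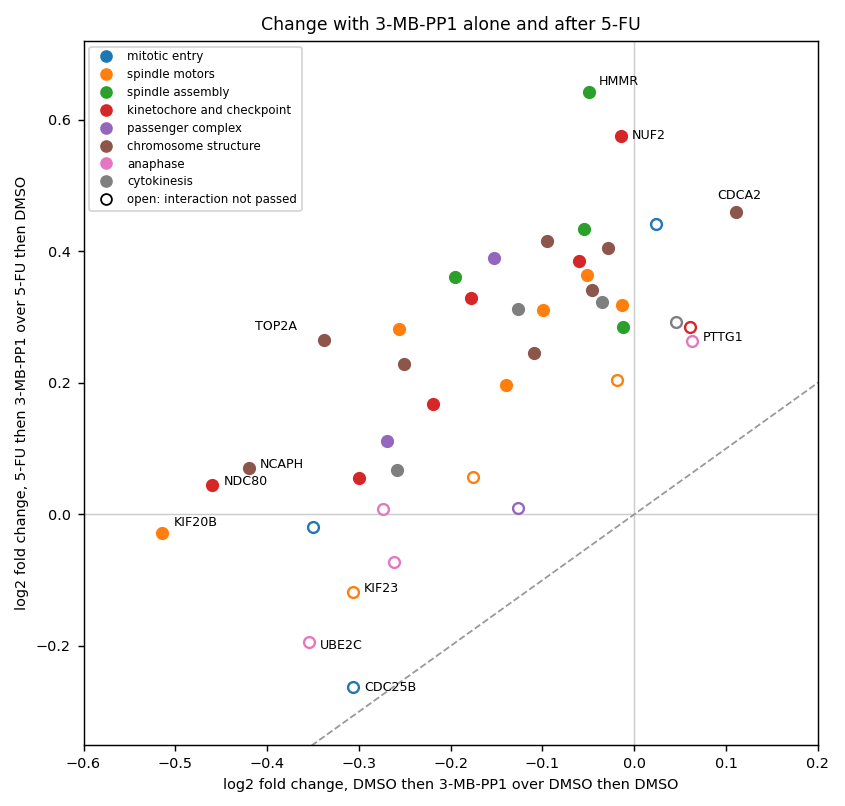
Log2 fold change with 3-MB-PP1 after 5-FU (vertical axis) against that with 3-MB-PP1 alone (horizontal axis) for the 42 genes, coloured by role, with the interaction passed (filled, 29) or not passed (open, 13) and a dashed line of equal change. All 42 points lie above the line under TMM scaling (14 would lie below it under spike-in scaling), from CDC25B, 0.04 above it, to HMMR, 0.69 above it.

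By summed CPM the groups of genes differed in how far the both-drug and 5-FU levels lay apart. Spindle assembly genes stood at 48.5% of vehicle with both drugs and 37.6% with 5-FU, and chromosome structure genes at 45.9% and 36.9%. Passenger complex genes stood at 49.5% and 41.2%, cytokinesis genes at 44.5% and 37.4%, kinetochore genes at 38.7% and 33.7%, and motors at 43.2% and 38.4%. Anaphase genes stood at 52.8% with both drugs and 53.7% with 5-FU, and entry genes at 49.6% and 56.5%, the only 2 of the 8 groups that were lower with both drugs. These sums follow their most abundant members, CDC20 and CDC25B in the last 2 groups. No test compared the groups of genes with each other.

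Other genes of the same machinery, 65 further structural genes of mitosis, mostly fell with 5-FU alone: 60 fell, 1 rose (FZR1, an activator of the anaphase-promoting complex in late mitosis and G1, 0.19) and 4 did not pass, with a median of -1.16. The largest falls were in CENPQ (-2.50), MLF1IP (-2.14), DSN1 (-2.04) and KNTC1 (-1.99), all of them kinetochore or centromere genes. Of all genes, 22.7% fell and 21.4% rose with 5-FU alone. With 3-MB-PP1 alone 21 of the 65 fell and 1 rose, where 16.9% and 11.5% of all genes did. After 5-FU, 22 rose and 8 fell with 3-MB-PP1, where 15.6% and 17.3% of all genes did. The interaction was higher for 23 and lower for 0, where 2.11% and 2.06% of all genes were.

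All 15 mitotic cyclins and kinases fell with 5-FU alone, with a median change of -1.47, with TTK (-1.93), WEE1 (-1.86), CCNA2 (-1.64) and PKMYT1 (-1.57) falling most. With 3-MB-PP1 alone 12 of the 15 fell (median -0.33), where 16.9% of all genes fell. After 5-FU, 3 rose and 2 fell with 3-MB-PP1 (median -0.04), near the 15.6% and 17.3% of all genes. The interaction was higher for 7, where 2.11% of all genes were higher. Of 15 regulators of mitotic promoters, 10 fell with 5-FU alone, 1 rose (NFYA, a subunit of NF-Y, 0.24) and 4 did not pass. Of all genes, 22.7% fell and 21.4% rose there. The transcription factors MYBL2 (-1.84) and FOXM1 (-1.34), the pocket protein gene RBL1 (-1.27) and the MuvB subunit gene LIN52 (-1.19) fell most. With 3-MB-PP1 after 5-FU 3 of the 15 rose (RBBP4 by 0.41, FOXM1 by 0.32 and MYBL2 by 0.28), 2 fell (E2F4, -0.46, and NFYA, -0.40) and 10 did not pass, where 15.6% of all genes rose and 17.3% fell. With 3-MB-PP1 alone 1 rose, 4 fell and 10 did not pass, where 11.5% of all genes rose and 16.9% fell. In that comparison FOXM1 changed by -0.13 (not passed) and MYBL2 fell (-0.23). CDKN1A, the gene of p21, rose with 5-FU alone (2.98, SE 0.05, edgeR adjusted p = 6.04e-24) and fell with 3-MB-PP1 after 5-FU (-0.89, SE 0.05, edgeR adjusted p = 1.63e-13). It also fell with 3-MB-PP1 alone (-0.22, SE 0.05, edgeR adjusted p = 0.00109). The part of CDKN1A in the members' changes was not tested.

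Libraries held 10576501 to 50481717 gene counts, the deepest being replicate 1 of the 3-MB-PP1 group, and log CPM of libraries of a group correlated at 0.993 to 0.995 across genes. The ERCC spike-ins took 3.61% and 2.88% of library totals in the both-drug libraries and 2.70% and 3.25% in the 5-FU libraries. They took 3.84% and 2.18% in the 3-MB-PP1 libraries, and 4.16% and 2.52% in the vehicle libraries. Spike-in shares thus differed between libraries of the same group, and the part of this in the spike-in results was not tested. Of 7 colorectal epithelial markers, 6 were tested and VIL1 had 0 to 6 counts. Their summed CPM was 4114 and 4172 in the both-drug libraries, 4696 and 4709 in the 5-FU libraries, 2783 and 2811 in the 3-MB-PP1 libraries, and 2643 and 2771 in the vehicle libraries, so that the sum was higher in both groups with 5-FU; its part in the members' fall was not tested. The markers did not move as one: with 5-FU alone KRT19 (1.31), KRT8 (0.81), KRT18 (0.69) and CDX2 (0.30) rose, EPCAM fell (-0.36) and CDH1 did not pass (0.17). Of 9 markers of other cell types, 6 had 0 to 18 counts in any library (PTPRC, CD3E, CD14, COL3A1, PDGFRB and VWF). The other 3 were counted and tested: LYZ (70 to 402 counts), COL1A1 (140 to 607) and PECAM1 (51 to 304). With 5-FU alone COL1A1 rose (0.48, edgeR adjusted p = 0.0015), and LYZ (0.03) and PECAM1 (-0.32) did not pass. The summed CPM of all 9 was 25.1 to 34.6 across libraries.

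Some members share long stretches with other transcripts, so their counts are less certain. CDC20 has a pseudogene, CDC20P1, with 96.3% identity over 1503 bases, and KIF4A has KIF4B, with 95.3% over 4359 bases. PTTG1 resembles PTTG2 (94.0% over 662 bases) and PTTG3P (94.7% over 607 bases). PRC1 shares 1668 bases with AC068831.7 (99.9%), MAD2L1 618 bases with AL132777.1 (97.7%) and SMC4 1306 identical bases with TRIM59. NCAPG shares 1563 identical bases with LCORL, the gene that overlaps it, and 754 with NCAPGP2 (93.4%). NCAPD2 resembles NCAPD2P1 (92.3% over 1799 bases), MKI67 resembles MKI67P1 (91.7% over 1391), and SPC25 matched stretches of MFSD14C (91.2% over 514) and NNT (91.1% over 504). Of the 42, 35 overlap no other gene of the tables. For the 15 members with several transcript rows, the rows' changes with 5-FU alone differed by at most 0.034 (UBE2C).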

How the data were processed

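Total RNA of HCT-116 cells was sequenced in 8 libraries, 2 for each of 4 treatments. Reads were aligned to hg19 with TopHat2 2.0.13, going by the tools and builds in the submitters' processing notes. Which program counted them, with which annotation and whether by strand, is not given in the sources used here. The deposited tables hold, for each of 41643 transcripts and 92 ERCC spike-ins, a whole read count that the authors left without normalization. They also hold RPKM, whose values equal the authors' counts over transcript length and library total. RPKM was used only to rank members by level. Starts were converted to the 1-based convention.

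Counts of the transcript with the highest mean count per symbol were fitted with edgeR 4.0.16 in R 4.3.3 (filterByExpr, TMM, quasi-likelihood F tests, 1 model of 4 groups with 4 residual degrees of freedom), and p-values were adjusted by Benjamini-Hochberg over 15654 genes within each of 6 comparisons, the threshold being 0.05. The common biological coefficient of variation was 0.0423, and standard errors came from the F statistics. Of 6260 transcripts without a symbol, 5901 were matched by accession to RefSeq names (GRCh38.p14). Changes are relative to the other genes. Depth was 10576501 to 50481717 gene counts per library.

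The members and the other gene lists were chosen with earlier results of these data known. Values in every library are given for the members with the largest and smallest change of each role with 5-FU alone, the 3 largest rises and falls with 3-MB-PP1 alone and after 5-FU, the 5 smallest adjusted p-values of the interaction, any member called against its role, and CDC20, CDC25B, CDC25C, TOP2A, MKI67 and BIRC5, 26 in all. Members named for other reasons were chosen after their values were seen. Promoter words were searched in RefSeq windows, and near copies among GENCODE transcripts at 90% identity or more over at least 500 bases. Alternatives were DESeq2 1.42.0, RLE factors, spike-in scaling, no filter, the longest transcript, fits of only the groups compared, a replicate block, and leaving out each library. The fit was tested on simulated data.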

Additional observations from a re-analysis of the deposited data

Results flagged for a closer look

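Under TMM scaling the change with 3-MB-PP1 differed between cells with and without 5-FU for 29 members by edgeR's interaction test. Of all genes tested, 2.11% were higher and 2.06% lower. Under spike-in scaling the test passed 0 members, at an adjusted or an unadjusted p under 0.05. In that scaling 14 members had estimates below 0, among them KIF4A and TPX2 of those listed here. The values listed are from TMM scaling, as the change after 5-FU minus the change without it. Among the spindle assembly genes the log2 difference was HMMR 0.69, ASPM 0.56, DLGAP5 0.49 and TPX2 0.30. Among the spindle motors the log2 difference was KIF11 0.54, KIF20B 0.49, KIF20A 0.42, KIF14 0.41, KIF2C 0.34 and KIF4A 0.33. Among the kinetochore and checkpoint genes the log2 difference was NUF2 0.59, MAD2L1 0.51, NDC80 0.50, ZWINT 0.45, CENPE 0.39 and CENPF 0.35. Among the passenger complex genes the log2 difference was BIRC5 0.54 and CDCA8 0.38. Among the genes of chromosome structure the log2 difference was TOP2A 0.60, NCAPG 0.51, NCAPH 0.49, SMC4 0.48, MKI67 0.43, SMC2 0.39, NCAPD2 0.36 and CDCA2 0.35. Among the cytokinesis genes the log2 difference was CEP55 0.44, ECT2 0.36 and ANLN 0.33. Each of the 29 was positive, and 12 were called without replicate 2 of the both-drug group. None of the 3 entry genes and none of the 4 anaphase genes passed in edgeR, while CDCA3, CDC20, PTTG1 and ESPL1 had an unadjusted p under 0.05. DESeq2 called 0 of these 7.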

How the results depend on the processing

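With RLE factors, no filter, the longest transcript or only the groups compared, every count of all members called stayed within 1.5 times the reported one. DESeq2 placed 16 members lower with 3-MB-PP1 alone, 24 higher and 1 lower with it after 5-FU, and 25 higher for the interaction. With ERCC spike-in scaling 3 members fell with 5-FU alone (median -1.34), 0 with 3-MB-PP1 alone (median 0.070), 0 with 5-FU before 3-MB-PP1 (median -1.32) and 4 with both drugs. In the same scaling 0 rose and 0 fell with 3-MB-PP1 after 5-FU (median 0.16) and 0 passed the interaction (median 0.025), BIRC5 changed by 0.063 with 3-MB-PP1 alone and the TPX2 interaction was -0.019. Over all genes, that scaling called 244 genes with 5-FU alone (6904 under TMM), 113 with 3-MB-PP1 alone (4458), 52 with it after 5-FU (5158), 140 with 5-FU before 3-MB-PP1 (6196), 425 with both drugs (7883) and 0 for the interaction (652). DESeq2 called 2673 genes with 3-MB-PP1 alone, 3374 with it after 5-FU and 385 for the interaction. Leaving out 1 library at a time gave 15 to 19 members lower with 3-MB-PP1 alone (median -0.16 to -0.12), and 21 to 27 higher and 1 to 2 lower with it after 5-FU (median 0.24 to 0.28). It gave 12 to 29 higher for the interaction (median 0.33 to 0.39). The medians ran from -1.51 to -1.43 with 5-FU alone, -1.14 to -1.09 with 5-FU before 3-MB-PP1 and -1.23 to -1.18 with both drugs, with 42 lower throughout. A lone remaining library was assumed to vary like the other groups. The labels do not say whether same-numbered libraries were prepared together. Over all genes tested, their deviations correlated at -0.062 to 0.042 over 6 pairs of groups. TMM scaling removes shifts shared by a whole library, so these values cannot exclude a pairing. With the replicate block 42 members fell with 5-FU alone, 20 fell with 3-MB-PP1 alone, 26 rose with it after 5-FU and 29 passed the interaction. Of 2314 values of named members under alternatives, 2098 kept sign and call, 170 lost the call and 2 gained it. The sign changed in 44, of which 24 were under spike-in scaling, and 2 of the 44 (BIRC5 and TPX2, above) had been called. The cause of these differences was not tested.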

Other observations

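Some genes outside the 42, chosen after their values were seen, also changed with 3-MB-PP1. DEPDC1, among the 65 further structural genes, fell (-0.35) with 3-MB-PP1 alone and rose (0.45) with it after 5-FU, with an interaction of 0.80 (SE 0.09, edgeR adjusted p = 2.9e-06). SHCBP1, whose product binds centralspindlin, rose with 3-MB-PP1 after 5-FU (0.70, SE 0.08, edgeR adjusted p = 7.36e-07), and its change of 0.02 with 3-MB-PP1 alone did not pass. The checkpoint gene MAD1L1 fell with 3-MB-PP1 alone (-0.27) and after 5-FU (-0.62). CDC16, a subunit gene of the anaphase-promoting complex, rose with 3-MB-PP1 alone (0.28) and after 5-FU (0.36). Of the regulators, NFYA fell with 3-MB-PP1 alone (-0.62, SE 0.09, edgeR adjusted p = 1.15e-05) and after 5-FU (-0.40).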
